A study of Mus musculus with 6 samples.

Results

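The genes described here encode enzymes that write and erase methylation of lysine 4 of histone H3 (H3K4). They are the 4 methyltransferase genes Kmt2a, Kmt2b, Kmt2c and Kmt2d and the 3 demethylase genes Kdm5a, Kdm5b and Kdm5c. They were taken by name after Ensembl identifiers had been matched to symbols, and all 7 listed names were found among the 12149 genes of the table. RNA was sequenced from 6 single whole blastocysts of embryonic day 3.5 on the C57BL/6 background. Each came from a zygote injected with small RNAs of mouse sperm at 2 ng/µl and cultured for about 96 h. In the control group (Ctl, 3 embryos) the small RNAs came from normal males, and in the other group (Dep, 3 embryos) from males with stress-induced depression. Both groups were thus injected, and no uninjected embryo is among the 6. The labels do not say which males or zygote donors an embryo goes back to, nor the sex of the embryos.

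Methyl groups on H3K4 mark active regulatory DNA: the trimethylated form sits at promoters and the monomethylated form at enhancers. KMT2A and KMT2B act at promoters and some other CpG-rich sites, and KMT2B is the main source of the broad H3K4 trimethylation of the mouse oocyte. KMT2C and KMT2D place monomethyl groups at enhancers. The KDM5 enzymes remove methyl groups from di- and trimethylated H3K4, and KDM5A and KDM5B are known for removing the broad maternal H3K4 trimethylation around zygotic genome activation. Comparing Dep with Ctl asks whether injected sperm small RNAs of stressed males were followed by other levels of these transcripts than those of normal males.

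The 2 families can be told apart by the coding sequence of their catalytic domains. The stretch around a conserved motif of the SET domain, which binds the methyl donor, is shown for the methyltransferases because it splits them into pairs, with the codons of the motif in capitals. All coding stretches are given 5′ to 3′ on the sense strand, from the longest coding sequence of each gene in GENCODE M21 (GRCm38).
Kmt2a: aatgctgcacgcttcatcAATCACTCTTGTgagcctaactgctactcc
Kmt2b: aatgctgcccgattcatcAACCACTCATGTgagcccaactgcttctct
Kmt2c: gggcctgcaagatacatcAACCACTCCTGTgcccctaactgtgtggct
Kmt2d: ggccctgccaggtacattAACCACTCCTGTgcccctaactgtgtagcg
Of these 48 bases, Kmt2a and Kmt2b share 41 and Kmt2c and Kmt2d share 42, whereas the pairs across share 29 to 33. For the demethylases the stretch holds the codons, in capitals, of the iron-binding histidine and glutamate of the JmjC domain and the residue between them. The Y-linked homologue of Kdm5c, Kdm5d, is shown with them.
Kdm5a: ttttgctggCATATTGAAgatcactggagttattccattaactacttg
Kdm5b: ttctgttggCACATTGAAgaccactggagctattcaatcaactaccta
Kdm5c: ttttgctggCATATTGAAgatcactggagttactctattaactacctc
Kdm5d: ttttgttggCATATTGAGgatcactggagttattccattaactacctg
Here Kdm5a shares 44 of 48 bases with Kdm5c, and Kdm5c shares 43 with Kdm5d. Such likeness matters for counting reads. In Kmt2a, Kmt2b, Kmt2c, Kdm5a, Kdm5b, Kdm5c and Kdm5d, no 50-base coding window occurs in the sense strand of another gene's annotated transcript. In Kmt2d, 339 of 16715 such windows (2.03%) do, most of them in a processed pseudogene that is not among the listed genes. The reverse complement of transcripts was not searched, so sharing with genes on the opposite strand is not covered. The longest run that Kdm5c and Kdm5d have in common is 35 bases. Read length is not given in the sources used here.

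In GRCm38, Kmt2a (ENSMUSG00000002028) spans 44803355 to 44881296 on chromosome 9 and Kmt2b (ENSMUSG00000006307) 30568858 to 30588726 on chromosome 7. Kmt2c (ENSMUSG00000038056) spans 25271798 to 25498783 on chromosome 5 and Kmt2d (ENSMUSG00000048154) 98831669 to 98871204 on chromosome 15, all 4 on the minus strand. On the plus strand, Kdm5a (ENSMUSG00000030180) spans 120364124 to 120444574 on chromosome 6 and Kdm5b (ENSMUSG00000042207) 134560171 to 134635285 on chromosome 1. Kdm5c (ENSMUSG00000025332) lies at 152233020 to 152274535 on the X chromosome. All are annotated as protein-coding. Kdm5a shares 251 exon bases with Ccdc77 on the opposite strand, Kmt2a 378 with an antisense gene model and Kmt2c 274 with another. Reads there cannot be assigned to a strand, because the SMART-Seq v4 kit does not mark it.

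Reads in listed genes numbered 16543356 to 21548220 per embryo, and every member had at least 108 reads in every embryo. Dep 1 stood apart: 691 of the listed genes had 0 reads in it, against 5 to 106 in the other embryos. All 7 epiblast and 7 trophectoderm markers were listed, as were 6 of 6 of primitive endoderm. Of the 6 oocyte markers only Zp3 was listed, with at most 125 normalized counts, and none of the 7 cumulus and granulosa cell or the 3 blood markers was. Summed epiblast markers ran from 7045 to 10301 normalized counts in the Ctl embryos and from 5709.7 to 12769 in the Dep embryos, and trophectoderm markers from 46222 to 71466 and from 40231 to 101116. Dep 1 had 0 reads of Gata4, Sox17 and Sox7 of primitive endoderm and of the epiblast gene Fgf4, and Ctl 3 had 0 of Gata4. For primitive endoderm the sums were 19616 to 22527 and 18756 to 25226, so that all 3 overlapped. Dab2 made up most of the primitive endoderm sums, at 13162 to 15562 in Ctl and 12573 to 22085 in Dep, highest in Dep 1. These sums thus say little about the other primitive endoderm markers. Likewise Krt8 (14423 to 34040) and Krt18 (13384 to 47707) together made up most of the trophectoderm sum in every embryo. Both were highest in Dep 1, and the trophectoderm sums say little about the other trophectoderm markers. Pdgfra was low in Ctl 3 (41.5) and Dep 1 (71.6), against 595 or more in the other embryos. The epiblast gene Tdgf1 was lowest in Dep 1, against 881 or more in the other embryos. In a whole embryo, fewer cells of a type and less RNA per cell cannot be told apart.

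No member passed the test between the groups, and 6 of 7 had a lower mean log2 level in Dep, though the log2 fold of Kmt2d, 1 of them, was 0.10 with edgeR. Kmt2c and Kdm5b had lower values in all 3 Dep embryos than in any Ctl embryo. The other 5 members overlapped between the groups, and of these Kdm5c had a higher mean log2 level in Dep. Over all 12149 genes limma called 0 at an adjusted p of 0.05 (0%), and DESeq2 called 1, which is no member. At an unadjusted p under 0.05 limma had 225 genes and edgeR 211 with 0 called. A lower mean log2 level in Dep was found in 51.8% of all genes. The groups did not overlap and Dep was lower in 3.80% of all genes, and Dep was higher without overlap in 3.09%. For the members these counts were 2 and 0 of 7. Their median log2 fold was -0.31, beside -0.02 for all genes.

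**Figure D1:**
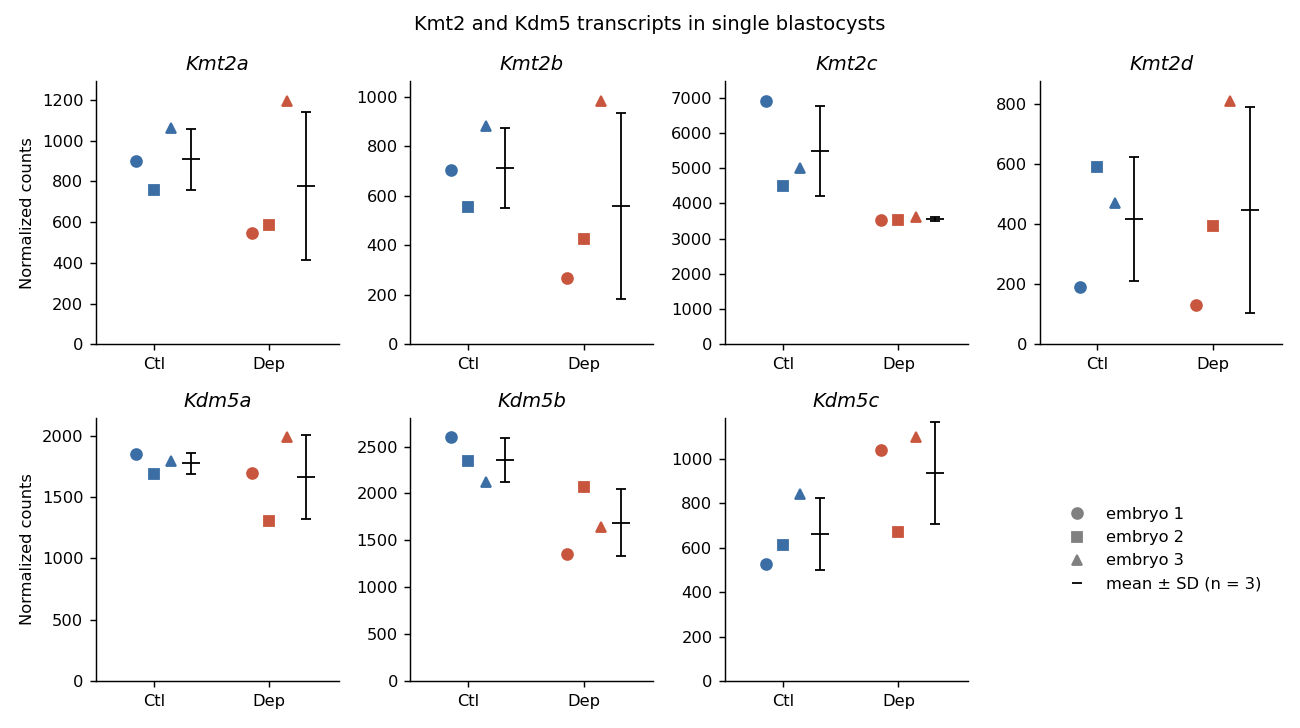
Normalized counts (linear axis from 0) of each member in the 3 Ctl embryos (blue) and the 3 Dep embryos (red), with the marker shape giving the embryo number and the black bar the mean ± SD. The Dep values of Kmt2c and Kdm5b all lie under the Ctl values, and Dep 3 is the highest embryo for Kmt2a, Kmt2b, Kmt2d, Kdm5a and Kdm5c.

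Kmt2a encodes a protein that maintains Hox gene expression. Its normalized counts in Ctl embryos 1 to 3 were 902, 760 and 1062, and Dep embryos 1 to 3 had 545, 588 and 1197. Dep 1 and Dep 2 lay under every Ctl embryo and Dep 3 above them all. The log2 fold was -0.31 ± 0.37 (SE; 95% interval -1.12 to 0.51; limma, adjusted p = 0.9997). It was -0.67 without Dep 3 and -0.10 without Dep 1.

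Kmt2b, its closest relative, followed the same order of embryos. Ctl embryos 1 to 3 had 703, 557 and 882 normalized counts, and Dep embryos 1 to 3 had 268, 424 and 986. Again Dep 1 and Dep 2 were the lowest embryos and Dep 3 the highest. The log2 fold was -0.54 ± 0.47 (SE; 95% interval -1.58 to 0.50; limma, adjusted p = 0.9997). This fold was -1.05 without Dep 3 and -0.12 without Dep 1, so that its size depended on which Dep embryo was kept.

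Kmt2c encodes 1 of the pair of enhancer methyltransferases. Its normalized counts were 6918, 4488 and 5016 for Ctl embryos 1 to 3, and Dep embryos 1 to 3 had 3524, 3529 and 3612. The Dep embryos were all lower than the Ctl embryos and close to each other, with means ± SD (n = 3) of 5474 ± 1278 (Ctl) and 3555 ± 49.0 (Dep). The mean in Dep was 64.9% of that in Ctl. The log2 fold was -0.60 ± 0.26 (SE; 95% interval -1.17 to -0.02). The unadjusted p of limma was 0.0425 and its adjusted p 0.9997. Of all genes, 1.02% had an unadjusted p under 0.05 with a lower Dep level (limma). Over the 18 alternative fits (limma, edgeR and DESeq2) the unadjusted p of Kmt2c was under 0.05 in 10. The authors' deposited table gives a log2 fold of -0.62 and an adjusted p of 0.9999 for Kmt2c. Ctl 1 was the highest embryo, and without it the fold was -0.42 (limma, unadjusted p = 0.187).

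Kmt2d, the other enhancer methyltransferase, varied most among the members, 6.20-fold between the lowest and the highest embryo. Ctl embryos 1 to 3 had 191, 593 and 471 normalized counts, and Dep embryos 1 to 3 had 131, 395 and 813. The embryos numbered 1 were the lowest of each group, and the groups overlapped throughout. Its mean was higher in Dep (447 ± 344 against 418 ± 206, SD, n = 3 each), while its mean log2 level was lower, by -0.11 ± 0.66 (SE; 95% interval -1.58 to 1.36; limma, adjusted p = 0.9997). The sign turned without Ctl 2 (0.22), Ctl 3 (0.05) or Dep 1 (0.59).

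Among the demethylases, Kdm5a varied least, 1.52-fold between embryos. Ctl embryos 1 to 3 had 1855, 1686 and 1793 normalized counts, and Dep embryos 1 to 3 had 1700, 1309 and 1989. The Ctl embryos lay within the span of the Dep embryos. The log2 fold was -0.11 ± 0.27 (SE; 95% interval -0.71 to 0.48; limma, adjusted p = 0.9997), and it was 0.05 without Dep 2.

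Kdm5b encodes a demethylase that is highly expressed in embryonic stem cells. Its normalized counts were 2600, 2350 and 2124 for Ctl embryos 1 to 3, and Dep embryos 1 to 3 had 1355, 2068 and 1644. The highest Dep embryo lay just under the lowest Ctl embryo. Means ± SD (n = 3) were 2358 ± 238 (Ctl) and 1689 ± 358 (Dep), and the Dep mean was 71.6% of the Ctl mean. The log2 fold was -0.50 ± 0.27 (SE; 95% interval -1.09 to 0.10; limma, adjusted p = 0.9997).

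Kdm5c, the X-linked demethylase that escapes X inactivation, was the 1 member with a higher mean log2 level in Dep. Ctl embryos 1 to 3 had 528, 613 and 843 normalized counts, and Dep embryos 1 to 3 had 1039, 673 and 1099. Dep 2 lay among the Ctl embryos, and Dep 1 and Dep 3 above them. Means ± SD (n = 3) were 661 ± 163 (Ctl) and 937 ± 230.4 (Dep), with a log2 fold of 0.50 ± 0.34 (SE; 95% interval -0.25 to 1.24; limma, adjusted p = 0.9997). In Dep 1, where Kmt2a, Kmt2b, Kmt2c, Kmt2d and Kdm5b had their lowest values, Kdm5c had its second highest.

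Since the sex of an embryo sets its number of X and Y copies, sex-linked transcripts are given beside Kdm5c. Normalized counts of Kdm5d were 0, 88.5 and 422 for Ctl embryos 1 to 3, and 137, 29.8 and 81.7 for Dep embryos 1 to 3. Xist, whose RNA silences 1 X chromosome in females, had 10312, 5518 and 874 for the Ctl embryos, then 151, 3783 and 5589 for the Dep embryos. The Y-linked translation factor gene Eif2s3y had 0, 1888 and 1574, then 2673, 188 and 1318, in the same order of embryos. Ctl 1 thus had the highest Xist, almost no Y-linked reads and the lowest Kdm5c. Dep 1 had the lowest Xist, the highest Eif2s3y and the second highest Kdm5c. Ctl 2, Dep 2 and Dep 3 had reads of both Xist and the Y-linked genes, with Xist at 3783 or more. The sex of these embryos cannot be told from these values, and why both kinds of reads were present was not tested. Other X-linked genes reported to escape inactivation did not share this order: Kdm6a, an H3K27 demethylase, was highest in Ctl 1 (1705) and Eif2s3x likewise (2000.2). Kdm5c and Kdm5d summed to 831 ± 385 (Ctl) and 1020.0 ± 274 (Dep) normalized counts (SD, n = 3), and Kdm5d gave up to 33.4% of the sum of an embryo, in Ctl 3. With the Y-linked level as a covariate the log2 fold of Kdm5c was 0.37 (limma, adjusted p = 0.999996). The part of embryo sex in the Kdm5c difference beyond this covariate was not tested.

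**Figure D2:**
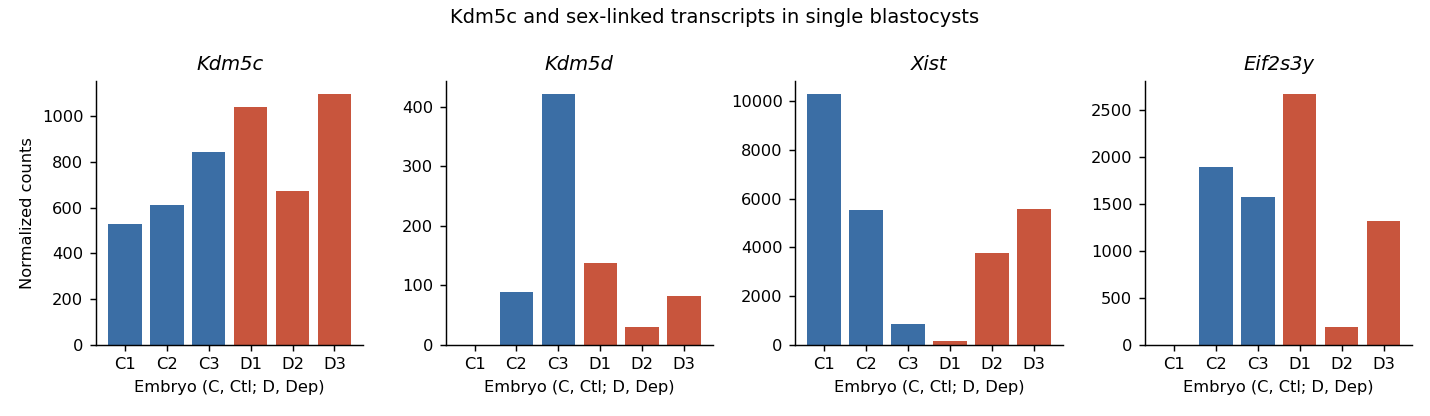
Normalized counts (linear axis from 0, a separate scale for each gene) of Kdm5c, its Y-linked homologue Kdm5d, Xist and the Y-linked Eif2s3y, 1 bar per embryo, Ctl blue and Dep red. Kdm5c is lowest in Ctl 1, the embryo with the highest Xist and no reads of Kdm5d or Eif2s3y.

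The levels of different members can be compared only per length, so reads were divided by exon length and by the reads in listed genes (FPKM). Kmt2c had the highest level in each of the 6 embryos, 12.1 ± 3.30 FPKM (SD, n = 6), and Kmt2d the lowest in each, 1.23 ± 0.799. Between them came Kdm5b at 6.68 ± 1.53, Kdm5a at 6.66 ± 1.21, Kdm5c at 6.17 ± 2.01, Kmt2b at 3.71 ± 1.81 and Kmt2a at 2.80 ± 1.05. By all exons the order of the 3 demethylases changed between embryos. Kdm5b was the highest of them in the Ctl embryos and Dep 2, and Kdm5c in Dep 1 and Dep 3. Kmt2b lay above Kmt2a in every embryo except Dep 1 (1.34 against 1.56 FPKM). By these levels 66.5% of all listed genes with a length were lower than Kmt2c and 16.5% lower than Kmt2d. With the length of the longest transcript in place of all exons the order of these means was kept, but the demethylases lay further apart, with Kdm5b at 12.7 ± 2.91, Kdm5a at 8.61 ± 1.56 and Kdm5c at 6.80 ± 2.21 FPKM. By that length Kdm5b (13.1) and Kmt2c (13.0 FPKM) were about level in Dep 2.

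Kmt2c made up 45.2% to 72.1% of the summed FPKM of the 4 methyltransferases, the lowest share being that of Dep 3. In that embryo Kmt2b reached 26.1% and Kmt2d 10.4%. Summed over the methyltransferases, Ctl embryos 1 to 3 had 24.4, 19.7 and 24.3 FPKM, and Dep embryos 1 to 3 had 11.5, 15.1 and 24.0, so that Dep 3 resembled the controls in sum though not in makeup. Summed over the demethylases, the Ctl mean was 19.7 ± 1.44 FPKM and the Dep mean 19.3 ± 4.13 (SD, n = 3). Within that sum Kdm5c took 20.5%, 24.8% and 31.7% of Ctl embryos 1 to 3, against 42.0%, 30.3% and 39.2% of Dep embryos 1 to 3. Kdm5b took 43.4%, 40.9% and 34.4%, against 23.5%, 40.02% and 25.2%, in the same order. By all exons Kdm5c was thus ahead of Kdm5b in Dep 1 and Dep 3 and behind it in Dep 2 and the Ctl embryos. This order depends on the length used: by the longest transcript the ratio of Kdm5c to Kdm5b was 1.04 in Dep 1 and 0.903 in Dep 3. The ratio of summed methyltransferase to summed demethylase level was 1.32, 1.02 and 1.14 for Ctl embryos 1 to 3, and 0.692, 0.876 and 0.998 for Dep embryos 1 to 3. Those groups overlapped when the longest transcript gave the length, with 0.851 in Ctl 2 and 0.872 in Dep 3. No test was made on these sums, as their genes had been chosen with results known.

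**Figure D3:**
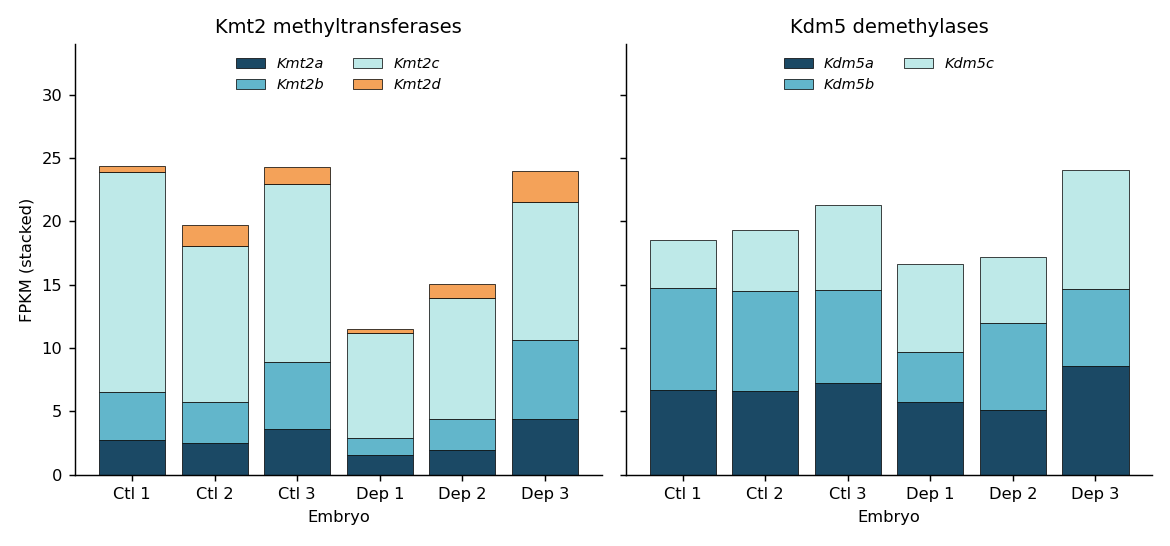
Stacked FPKM by all-exon length (linear axis from 0) of the 4 Kmt2 genes (left) and the 3 Kdm5 genes (right) in each embryo. Kmt2c is the largest part of the left bars in every embryo, and the Kdm5c part of the right bars is larger than that of Kdm5b in Dep 1 and Dep 3 by the all-exon lengths plotted, though not in Dep 3 by the longest transcript.

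The members are long transcripts, and over the whole table the median log2 fold was lower in each longer class of transcripts. Among the 635 listed genes whose longest transcript has 8000 or more bases, 73.7% had a lower mean log2 level in Dep, and the median log2 fold was -0.23. For the 2933 genes under 2000 bases the median was 0.08 and 42.1% were lower. In the longest class the median deviation from the mean of all embryos was -0.29, -0.14 and 0.22 for Dep embryos 1 to 3, and 0.20, 0.05 and 0.21 for Ctl embryos 1 to 3. Dep 1 and Dep 2 were thus low in long transcripts as a class, as they were in Kmt2a and Kmt2b. Kmt2a, at 16470 bases, Kmt2c at 14967, Kmt2b at 8469 and Kdm5b at 8714 had log2 folds under the median of this class, and Kdm5a and Kmt2d lay nearer to 0 than it. Kdm5c, at 6449 bases, had the opposite sign to the median of its own class, -0.15. The part of transcript length in the members' differences was not tested.

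**Figure D4:**
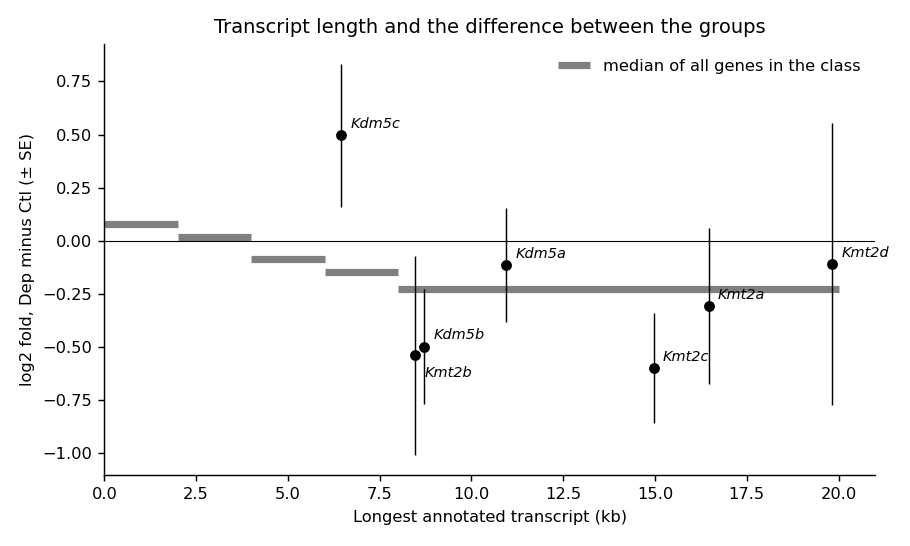
Log2 fold of each member (points, ± SE) against the length of its longest annotated transcript, with the median log2 fold of all listed genes in each length class as grey bars. The class medians go from 0.08 under 2000 bases to -0.23 at 8000 bases or more, where 6 of the 7 members lie.

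The proximal promoters are shown for Kmt2c and Kdm5b, the members with lower values in every Dep embryo. RefSeq windows (GRCm38.p6) were found for 5 of the 7 members. Each sequence is the 250 bases before the start of the gene by RefSeq, in the direction of the gene: chr5:25498784-25499033 on the minus strand for Kmt2c and chr1:134559928-134560177 on the plus strand for Kdm5b, whose last bases lie inside the gene by GENCODE. Capitals mark GC boxes, searched as GGGCGG and its reverse complement CCGCCC with overlaps allowed.
Kmt2c: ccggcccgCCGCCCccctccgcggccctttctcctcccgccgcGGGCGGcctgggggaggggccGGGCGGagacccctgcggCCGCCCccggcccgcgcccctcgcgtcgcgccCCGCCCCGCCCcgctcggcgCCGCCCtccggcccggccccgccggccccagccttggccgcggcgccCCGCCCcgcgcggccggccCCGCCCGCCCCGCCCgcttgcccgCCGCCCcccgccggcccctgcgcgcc
Kdm5b: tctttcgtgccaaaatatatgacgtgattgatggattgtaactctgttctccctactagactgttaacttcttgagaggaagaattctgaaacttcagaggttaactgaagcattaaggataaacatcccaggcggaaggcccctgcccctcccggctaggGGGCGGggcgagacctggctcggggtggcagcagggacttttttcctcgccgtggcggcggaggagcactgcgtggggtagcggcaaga
The Kmt2c window holds 12 GC boxes and 48 CpG dinucleotides, more CpG than 99.8% of the 32851 promoter windows. The Kdm5b window holds 1 GC box and 13 CpG. The Kdm5c window holds 0 and 10, but most of it lies within that gene by GENCODE, so it is not comparable as a promoter. The windows of Kmt2a and Kmt2d hold 4 GC boxes each, with 29 and 26 CpG. Of all windows 32.7% hold at least 1 GC box, and the median number of CpG is 6. The 2 genes that were lower in every Dep embryo thus had unlike promoters by this count.

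Other genes of H3K4 methylation had log2 folds on both sides of 0. Of 35 such genes 34 were measured and Setd7 was not among the listed genes. Of the 34, 0 passed the test, and 16 had a lower and 18 a higher mean log2 level in Dep. Their median log2 fold was 0.01. With edgeR and with DESeq2, 19 were lower. Kdm5d counts as higher in the main fit (log2 fold 1.07), with 0 reads in Ctl 1, though its Dep mean was 48.7% of its Ctl mean. Of the shared core of the methyltransferase complexes, the scaffold Wdr5 had a Ctl mean of 3177 ± 717 normalized counts and a Dep mean of 2903 ± 545 (SD, n = 3). Rbbp5, which with ASH2L activates the SET domain, had 983 ± 135 and 740.5 ± 191, and Ash2l itself 6529 ± 1561 and 8576 ± 2520. Dpy30 had 4012 ± 778 and 4277 ± 2021. Thus 2 of the 4 core genes had a lower and 2 a higher mean log2 level, with log2 folds from -0.43 to 0.38.

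The SET1 methyltransferases place most promoter H3K4 trimethylation in many cell types. As for Kmt2a and Kmt2b, the Setd1a values of the Dep embryos lay on both sides of all Ctl values. Ctl embryos 1 to 3 had 369, 397 and 461 normalized counts of Setd1a, and Dep embryos 1 to 3 had 197, 295 and 730, with Dep 3 highest and Dep 1 lowest. Setd1b had means of 134 ± 44.0 (Ctl) and 147 ± 35.8 (Dep) normalized counts (SD, n = 3). Of the 4 partners of KMT2C and KMT2D, Paxip1 had lower values in every Dep embryo (455, 621 and 788 normalized counts) than in the Ctl embryos (901, 1030 and 847). Its log2 fold was -0.61 ± 0.32 (SE; limma, adjusted p = 0.9997). The other three, Kdm6a, Pagr1a and Ncoa6, overlapped.

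Of the other demethylases, Kdm1a, the gene of the flavin-dependent enzyme LSD1, had nearly equal means, 1714 ± 99.7 (Ctl) and 1716 ± 208 (Dep) normalized counts (SD, n = 3). Its relative Kdm1b, needed for imprint setting in the oocyte, had 236, 173 and 95.3 for Ctl embryos 1 to 3, and 497, 164 and 366 for Dep embryos 1 to 3. The groups overlapped through Dep 2, and the log2 fold was 0.98 ± 0.56 (SE; limma, adjusted p = 0.9997). Kdm2b, a CpG-island binding demethylase, had 1889 ± 287 and 1559 ± 275. Smyd1, a methyltransferase of muscle, was the single gene of these 34 with higher values in every Dep embryo (233, 191 and 169) than in the Ctl embryos (141, 102 and 76.8). Phf8, whose PHD finger reads trimethylated H3K4, had lower values in every Dep embryo (276, 224 and 192) than in the Ctl embryos (288, 369 and 456). Neither passed the test (limma, adjusted p = 0.9997 for both). Without overlap, 1 of the 34 genes was higher in Dep and 2 were lower (Paxip1 and Phf8). Over all genes these shares were 3.09% and 3.80%, so the counts do not set the list apart.

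**Figure D5:**
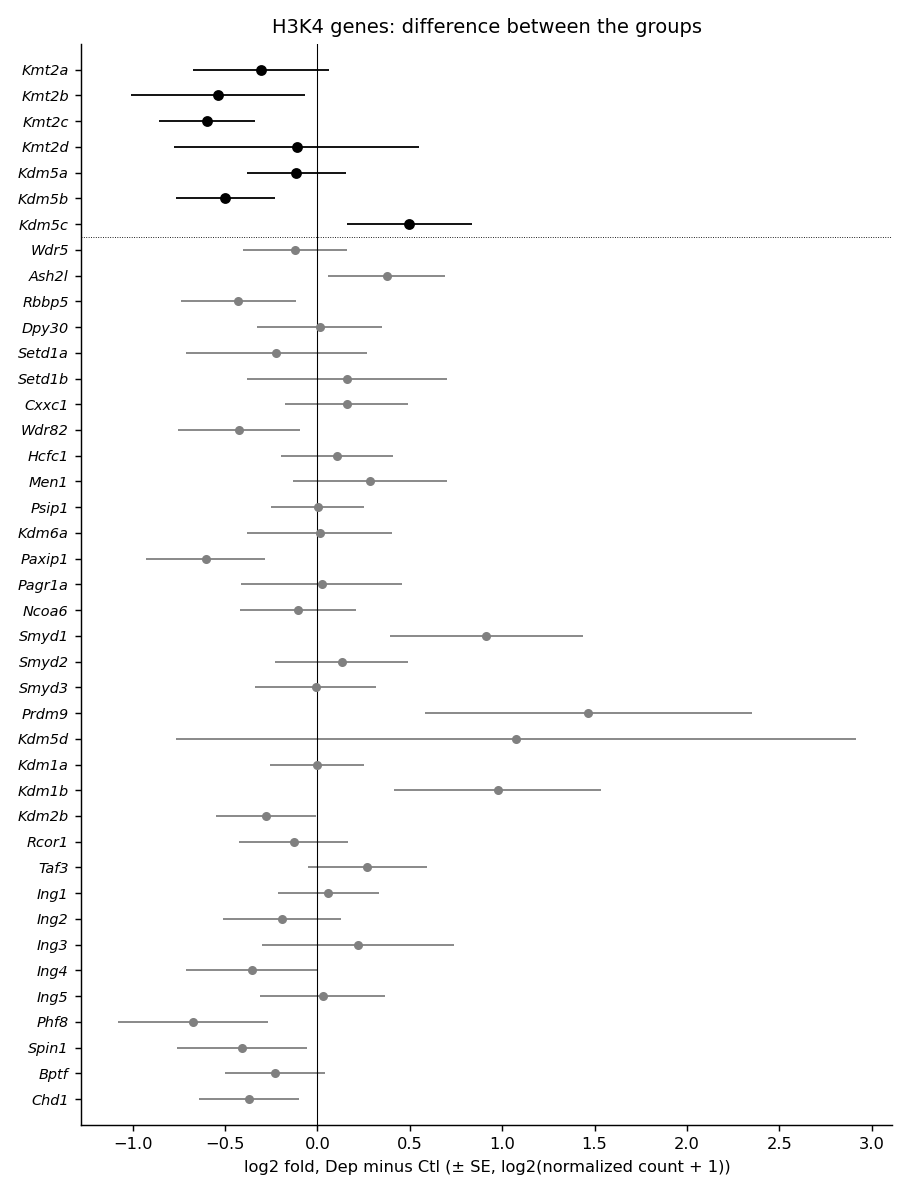
Log2 fold of Dep against Ctl with its SE for the 7 members (black, above the dotted line) and 34 other H3K4 genes (grey). Of the members 6 lie left of 0 and of the other genes 16 do, and none passed the test.

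Some listed genes had nearly the same course over the 6 embryos as a member, by Pearson's r of log2 levels among 9473 named genes with a mean of at least 100 normalized counts. The values of r rest on 6 embryos and are a description, with no test. Kmt2b was followed most closely by Wipf2 (r = 0.999) and BC005561 (r = 0.997), and Kmt2a by Epc2 (r = 0.995) and Bri3 (r = 0.989). Kmt2c was followed by Metap1 (r = 0.982) and Ly6a (r = 0.981), and Kmt2d by Steap3 (r = 0.993) and Cnpy4 (r = 0.992). For Kdm5a the closest were Gm16580 (r = 0.995) and Arid1a (r = 0.993), for Kdm5b Dusp12 (r = 0.998) and Atg4a (r = 0.979), and for Kdm5c Dand5 (r = 0.988) and Capn15 (r = 0.987). No member was among the 2 closest genes of another, though Kmt2a and Kmt2b had r = 0.972 with each other. For the other members the highest r with a member ran from 0.304 (Kdm5c with Kdm5a) to 0.768 (Kmt2c with Kdm5b).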

How the data were processed

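RNA of 6 single blastocysts was amplified with the SMART-Seq v4 kit, per the labels' protocols. HISAT2, Cufflinks 2.2.1 and mm10 stand in the submitters' processing notes, with no role given. For the counting program, none is given in the sources used here. In the deposited file each gene has a signal value per embryo, which by its values is a normalized read count. The authors also deposited, per the file headers, a log2 fold and its SE, a score (test statistic) and raw and adjusted p-values. Division by the smallest step made 100% of values whole in every embryo (tolerance 0.01), and DESeq2 on those reads differed from the deposited log2 folds by at most 4.26e-08. The least abundant listed gene has a mean of 14.2 normalized counts.

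The members and gene lists were chosen with earlier results of these data known. The naming rule took all members and, of the other H3K4 genes, those past the threshold or without overlap and a fixed set of core, SET1 and demethylase genes. It also took sex-linked genes and, for each member, the 2 genes of highest r. Symbols, positions and lengths came from GENCODE M21 (GRCm38, the assembly of mm10), which matched 11829 of 12149 identifiers; promoters came from RefSeq. Depth counts reads in listed genes, and reads without molecular identifiers are not independent molecules. The main test was limma 3.58.1 with a mean-variance trend on log2(normalized count + 1) over all genes, with Benjamini-Hochberg adjustment and a threshold of 0.05. A log2 fold on this scale understates changes of low genes. The p-values measure the spread between these embryos, since the labels do not say that they come from separate parents or injection days. The fit was tested on simulated data.

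Alternatives were the pseudocount, a minimum mean of 100, quantile and TMM scaling, library weights, no trend, a Y-linked covariate, FPKM, each embryo left out, edgeR 4.0.16 and DESeq2 1.42.0 on recovered reads (R 4.3.3), and the replicate number as a block. Same-numbered embryos of the 2 groups deviated together across genes (r = 0.133, 0.151 and 0.129), against r of -0.158 to 0.044 for embryos of unlike number. Deviations were from the mean of each embryo's own group, so a positive r for some pairs forces lower r for others. The contrast is thus partly built in and does not establish a pairing. The replicate number was fitted as a block only as an alternative. The SEs and intervals given above come from the main fit, which has no pairing. With the block the SE of Kmt2d was 0.40, against 0.66 in the main fit. The labels do not state a pairing.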

Additional observations from a re-analysis of the deposited data

How the results depend on the processing

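With an embryo left out or another setting, 119 of 126 values of the 7 members kept their direction, and none passed the threshold (lowest adjusted p = 0.838). Kmt2a, Kmt2b, Kmt2c, Kdm5b and Kdm5c kept it throughout. Kmt2d turned to 0.11 with library weights, 0.10 with edgeR and 0.095 with DESeq2, and ranged from -0.72 to 0.59 with an embryo left out. Kdm5a ranged from -0.25 to 0.049 with an embryo left out. With the replicate number as a block 0 genes were called, and Kmt2c had an unadjusted p of 0.0216. The block changed no call, and it raised the genes at an unadjusted p under 0.05 to 420. That count was 399 with library weights, 139 with the Y-linked covariate and 122 to 576 with an embryo left out. DESeq2 called 1 gene, and the cause was not tested. Members lower in Dep without overlap numbered 2 to 4 with an embryo left out, the 4 arising without Dep 3 (Kmt2a, Kmt2b, Kmt2c and Kdm5b). Groups with fewer embryos separate more easily, and the share over all genes was not counted with an embryo left out. The count of 4 thus has no background and is not read as a result about the members. With the length of the longest transcript the ratio of methyltransferase to demethylase level in Ctl was 0.980.

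Among the other genes, the following log2 folds turned sign. Dpy30 had -0.037 with quantile normalization, -0.16 with library weights and -0.35 to 0.25 with an embryo left out. Setd1b had -0.00019 with the Y-linked covariate and -0.081 to 0.40 with an embryo left out. Kdm1a had 0.0025 with edgeR, 0.0016 with DESeq2 and -0.10 to 0.056 with an embryo left out. Kdm5d, at 1.07 in the main fit, had -0.59 with the Y-linked covariate, -1.03 with edgeR, -1.04 with DESeq2 and -0.20 with FPKM. With an embryo left out it ranged from -1.46 to 2.90. Wdr5 ranged from -0.31 to 0.041 and Setd1a from -0.75 to 0.19 with an embryo left out. Depth limits Kmt2d in Dep 1, with 108 reads, and Kdm5d in Ctl 1, with 0.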
